A study of Mus musculus with 17 samples.

Results

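Heat shock proteins and their DnaJ cochaperones form the cell's protein folding network. The genes followed here were the protein-coding mouse genes whose symbols name a small heat shock protein (Hspb), an HSP70 or HSP110, a cytosolic HSP90, the mitochondrial chaperonin pair Hspd1 and Hspe1, or a DnaJ protein of class A, B or C. The endoplasmic reticulum HSP70 Hspa5 was left out by the rule, and 14 pseudogenes that carry a matching symbol were not counted. The rule gave 70 genes of 21974 protein-coding genes: 8 small heat shock proteins, 12 HSP70 genes, 1 HSP110, 2 HSP90 genes, 2 chaperonin genes, 4 class A, 13 class B and 28 class C DnaJ genes. The rule uses gene symbols and annotation and no expression value. The classes also follow the symbols, so Hspa4 and Hspa4l, whose proteins are of the HSP110 type, are counted with HSP70.

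HSP70 proteins bind and release unfolded stretches of other proteins in a cycle driven by ATP. DnaJ proteins bring them their clients and start ATP hydrolysis, and HSP110 proteins exchange the nucleotide. HSP90 acts later on partly folded clients, the chaperonin folds proteins inside mitochondria, and small heat shock proteins hold unfolded proteins without ATP. In a heat shock the transcription factor HSF1 binds repeats of the letters GAA and their complement in promoters and raises a subset of these genes. In the brain, small heat shock proteins are known from astrocytes, and several DnaJ proteins work at synapses.

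The mice were male GFAP-Cre+/- Rpl22HA/wt animals that entered the experiment at 8 to 9 weeks of age, and every group shared this genotype. Cre under the GFAP promoter turns on an HA-tagged ribosomal protein, so that RNA on tagged ribosomes of the corpus callosum can be pulled down and sequenced. Cuprizone mice were fed 0.2% cuprizone, which binds copper and leads to loss of myelin, for 5 weeks and were taken at 5 weeks or, after a return to normal chow, at 5.5 or 7 weeks. Mock mice ate normal chow and were taken at the same weeks. The 5-week libraries were batch 1 and the 5.5- and 7-week libraries batch 2, so the week and the batch cannot be told apart between 5 weeks and the rest. GFAP promoter activity is not limited to astrocytes in every mouse line, and animals per library are not given in the sources used here.

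Of 17 deposited libraries, 8 repeated another library of their group. In these, 46.6% to 96.2% of genes with at least 500 counts lay 1 to 10 counts above the other library. No pair from different groups, and no pair of libraries kept within a group, reached more than 4.18% within 10 counts. Other pairs within a group that include a repeating library were not in that comparison. The 9 remaining libraries, with 20797535 to 30400048 counts each, were used: 3 cuprizone and 2 mock libraries at 5.5 weeks, and 1 cuprizone and 1 mock library at 5 weeks and again at 7 weeks. At 5 and 7 weeks the differences therefore have no replicate check, intervals cover counting error only, and no p-value is given for them alone. Whether the 5.5-week libraries came from separate animals is known only from their labels as biological replicates, and p-values measure the spread between these libraries.

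The 7-week cuprizone library stood apart. It detected 34576 genes, where the other 8 detected 19496 to 23980, and mitochondrial transcripts took 0.526% of its counts against 0.0147% to 0.0594% elsewhere. Summed microglia markers reached 763 CPM, the count relative to its library total, in it, against 50.4 CPM in 7-week mock, endothelial markers 183 against 4.86 CPM, and mural cell markers 209 against 27.6 CPM. Neuron markers summed to 7375.2 CPM in it, against 11914.2 CPM in mock. All libraries held astrocyte RNA together with other cells' RNA: at 5.5 weeks the 8 astrocyte markers summed to 13594.5 to 15970.8 CPM in cuprizone libraries and 10325.0 to 10786.0 CPM in mock libraries, and the 10 mature oligodendrocyte markers to 18754.5 to 23028.4 CPM in cuprizone and 15791.1 to 16543.4 CPM in mock. Without Gfap the other astrocyte markers summed to 8646.8 to 10240.1 CPM in cuprizone and 9148.8 to 9671.3 CPM in mock, which overlapped. Of the 10 oligodendrocyte markers 5 lay wholly above mock, 2 wholly below and 3 overlapped. Summed choroid plexus markers were also higher at 5.5 weeks, at 26.8 to 47.6 CPM in cuprizone and 11.3 to 12.2 CPM in mock. Of the 4 markers 3 lay wholly above mock and 1, Kl, overlapped. Ttr had 9.46 to 32.4 CPM in cuprizone and 1.21 to 1.56 CPM in mock, while Folr1 and Clic6 reached no more than 1.07 and 2.26 CPM. In such bulk RNA, fewer cells of a type and less RNA per cell cannot be told apart.

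**Figure D1:**
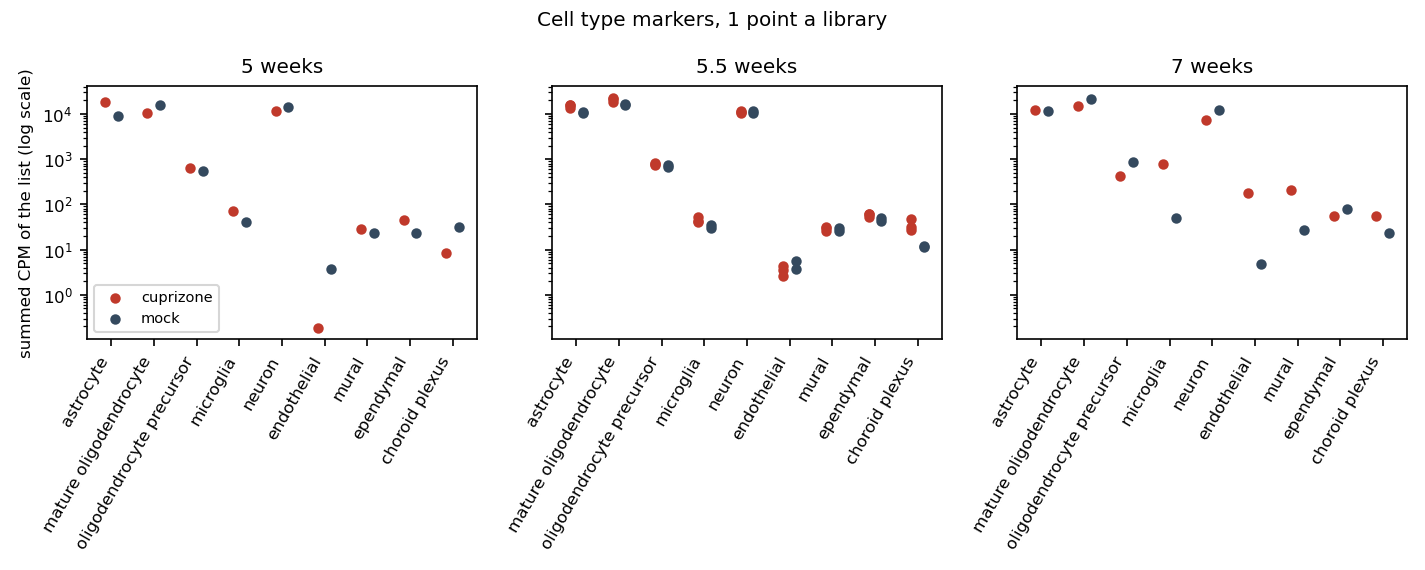
Summed CPM of the cell type marker lists (log scale), 1 point a library, cuprizone left in red and mock right in dark, at 5, 5.5 and 7 weeks. In the 7-week cuprizone library the microglia, endothelial and mural lists stand at 763, 183 and 209 CPM, against 50.4, 4.86 and 27.6 CPM in mock.

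Shown first are the upstream letters of 6 genes on which the results turn, since they carry 1 or more of the GAA repeats that HSF1 binds. Printed are the 150 bases before the RefSeq start of each gene on its own strand, 5′ to 3′, from the RefSeq table for GRCm38.p6, with heat shock element letters (GAANNTTC or TTCNNGAA) in capitals.
Hspb6: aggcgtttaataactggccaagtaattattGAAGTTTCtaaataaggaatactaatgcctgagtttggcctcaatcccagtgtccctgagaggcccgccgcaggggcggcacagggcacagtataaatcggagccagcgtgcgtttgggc
Hspb1: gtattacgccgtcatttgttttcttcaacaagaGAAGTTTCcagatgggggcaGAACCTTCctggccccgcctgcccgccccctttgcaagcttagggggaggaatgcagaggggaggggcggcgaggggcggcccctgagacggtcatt
Hspa1a: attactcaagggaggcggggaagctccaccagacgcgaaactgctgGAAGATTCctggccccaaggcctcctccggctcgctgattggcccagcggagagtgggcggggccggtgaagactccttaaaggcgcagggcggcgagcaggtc
Hsph1: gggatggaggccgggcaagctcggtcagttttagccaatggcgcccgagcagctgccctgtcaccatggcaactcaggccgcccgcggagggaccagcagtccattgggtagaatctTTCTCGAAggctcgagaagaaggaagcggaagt
Hspd1: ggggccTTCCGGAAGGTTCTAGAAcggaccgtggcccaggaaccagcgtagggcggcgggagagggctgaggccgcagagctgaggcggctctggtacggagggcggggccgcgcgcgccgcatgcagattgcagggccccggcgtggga
Hspe1: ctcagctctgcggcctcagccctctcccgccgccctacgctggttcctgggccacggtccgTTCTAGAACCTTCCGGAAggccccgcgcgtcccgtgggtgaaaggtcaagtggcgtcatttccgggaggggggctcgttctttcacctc
The windows lie in GRCm38.p6 for Hspb6 at chr7:30553151-30553300 (plus strand), Hspb1 at chr5:135887769-135887918 (plus strand), Hspa1a at chr17:34972157-34972306 (minus strand), Hsph1 at chr5:149636337-149636486 (minus strand), Hspd1 at chr1:55087933-55088082 (minus strand) and Hspe1 at chr1:55087998-55088147 (plus strand). Hspb6 held a single element, 120 to 113 bases before the start, and Hspa1a a single one at 104 to 97 bases before it. Hspb1 held a pair, while Hspd1 and Hspe1 are read from opposite strands and share 85 of these bases and with them the same run of 3 overlapping elements.

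Searched on both strands over 250 bases before to 50 bases after the start, the element was found in 16 of the 56 members with a window (28.6%) and in 17% of 27025 genes. The longer form of 3 units in a row, which contains the shorter one, was found in 4 members (Dnajb6, Hspd1, Hspe1 and Hsph1; 7.14%) and in 0.662% of all genes. The C/EBP-ATF letters TGATGNAA (read TTNCATCA on the other strand) were found in Hspa14 alone among the members (1.79%), against 4.51% of all genes. A match is a description of letters and not of a bound site.

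At 5.5 weeks, shortly after the return to normal chow, a single member passed the test. Hspb6 (ENSMUSG00000036854, chromosome 7), a small heat shock protein also known as HSP20, had 29.1, 31.1 and 27.3 CPM in cuprizone libraries, against 10.6 and 12.4 CPM in mock libraries. Every cuprizone library lay above both mock libraries. The means were 29.2 ± 1.91 CPM in cuprizone (SD, n = 3) and 11.5 ± 1.33 CPM in mock (SD, n = 2), a 2.54-fold rise with a log2 fold change of 1.34 ± 0.14 (SE) and an adjusted p of 0.000647 by edgeR's quasi-likelihood test, corrected by Benjamini-Hochberg across 16086 genes. Mural cell markers, genes of vessel wall cells in which Hspb6 is also known, summed to 26.4, 30.7 and 31.2 CPM in cuprizone and 29.5 and 26.4 CPM in mock, which overlapped, and 0 of the 4 tested passed. Of these sums Rgs5 held 14.8 to 20.8 CPM, while Myh11 reached no more than 0.97 CPM and Tagln no more than 0.0384 CPM. The part of mural cells in the Hspb6 difference was not tested. Gfap, the gene whose promoter drives Cre here, had 4946.8 to 6066.0 CPM in cuprizone and 1115.1 to 1176.5 CPM in mock, and its part in the Hspb6 difference was not tested. Of the other astrocyte markers 2 (Gja1 and Aldh1l1) lay wholly below mock in cuprizone and 5 overlapped. Of the 63 members that passed the count filter, 1 rose, where 1.08% of all genes did, and 0 fell, where 0.392% did (1.47% of all genes passed in either direction). At an unadjusted p under 0.05 the same test had 4 members higher and 3 lower, 7 in all, against 10.9% of all genes, and DESeq2 and limma-voom each had 1 member that rose and 0 that fell. CPM values are scaled by edgeR's trimmed mean of M-values (TMM) within each week, so levels of different weeks are on separately set scales.

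The other small heat shock proteins did not pass the test at 5.5 weeks. Hspb1, which holds unfolded proteins and binds actin filaments, had 0.946, 1.44 and 1.69 CPM in cuprizone libraries, against 0.381 and 0.705 CPM in mock libraries. Its groups did not overlap, but at these low counts its log2 fold change of 1.32 ± 0.39 (SE) had an adjusted p of 0.174 by edgeR's quasi-likelihood test. Without the count filter its edgeR adjusted p was 0.0309. Hspb8, the partner of Bag3 in clearing damaged proteins by autophagy, had 40.9, 38.5 and 38 CPM in cuprizone libraries and 32.2 and 40.1 CPM in mock libraries, which overlapped. Hspb11, an intraflagellar transport protein, Hspb2 and Hspb3, muscle chaperones that pair with each other, had log2 fold changes of -0.13, -0.37 and -0.21. Hspb7 and Hspb9 were too low to test.

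Over the whole network at 5.5 weeks, the 63 members had a median log2 fold change of -0.05, between -0.57 for Hspa1a and 1.34 for Hspb6, beside a median of 0.00 over all genes tested. In 7 members every cuprizone library lay above both mock libraries and in 14 every one lay below, while over all genes 13.2% lay wholly above and 14.8% wholly below. Per kilobase of exon, the most abundant members were Hsp90ab1 at 668 CPM per kb in cuprizone and 751 in mock, Hspa8 at 453 in cuprizone and 479 in mock, and Hsp90aa1 at 159 in cuprizone and 182 in mock. The order of these 3 was the same in both groups. Of the 70 genes, 7 were too low for the comparison of cuprizone with mock at any of the 3 weeks: Dnajb7, Dnajb8, Dnajc22, Dnajc5b, Dnajc5g, Hspb7 and Hspb9. Of these, Dnajb7 passed the count filter of the 9-library fit given further on, and Dnajc5g had 0 counts in every 5.5-week library.

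Among HSP70 genes, the constitutive Hspa8 had 1970.8, 1803.5 and 2075.9 CPM in cuprizone libraries, against 2060.4 and 2063.5 CPM in mock libraries, which lay inside the cuprizone range. The stress-inducible Hspa1a had 7.33, 6.5 and 6.91 CPM in cuprizone libraries, against 9.04 and 11.6 CPM in mock libraries. All of its cuprizone libraries were lower, but its log2 fold change of -0.57 ± 0.17 (SE) did not pass, with an edgeR adjusted p of 0.165. Hspa1a is nearly identical to Hspa1b, so reads may be split between them; their summed level was 7.97, 7.36 and 7.94 CPM in cuprizone and 9.77 and 12.7 CPM in mock, with the same order. In addition, 19% of the exon length of Hspa1a is overlapped by another annotated gene, and a strand setting for the counting is not given in the sources used here.

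The other classes at 5.5 weeks had medians close to that of all genes. The HSP90 pair had log2 fold changes of -0.19 for the inducible Hsp90aa1 and -0.17 for the constitutive Hsp90ab1, and the HSP110 Hsph1 had 0.01. The chaperonin subunit Hspd1 had -0.14 and its lid Hspe1 -0.30. The 4 class A DnaJ genes lay between -0.15 and -0.02, and the medians were 0.01 for 11 tested class B genes, -0.05 for 25 class C genes and -0.02 for 12 HSP70 genes. Dnajb13, a DnaJ protein of sperm and ciliary axonemes, had 3.21, 2.8 and 2.57 CPM in cuprizone, against 1.45 and 1.78 CPM in mock, with a log2 fold change of 0.82 ± 0.24 (SE) and an edgeR adjusted p of 0.163. The endoplasmic reticulum protein Dnajc25 had 0.878, 1.72 and 1.07 CPM in cuprizone, against 0.623 and 0.78 CPM in mock (log2 fold change 0.78 ± 0.37, SE). Dnajb2, a neuronal cochaperone that binds ubiquitin, had 138, 147 and 133 CPM in cuprizone, against 152 and 196 CPM in mock (-0.32 ± 0.12, SE), and Dnajc6, the neuronal auxilin that uncoats clathrin vesicles, 213, 200 and 227 CPM in cuprizone, against 187 and 175 CPM in mock (0.24 ± 0.11, SE). In each of these 4 genes the groups did not overlap, and none passed the adjusted threshold. In Dnajc19, Dnajb3, Dnajc8 and Dnajc9 every cuprizone library lay below both mock libraries. Their log2 fold changes were -0.25, -0.42, -0.21 and -0.21, and none of them passed either.

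**Figure D2:**
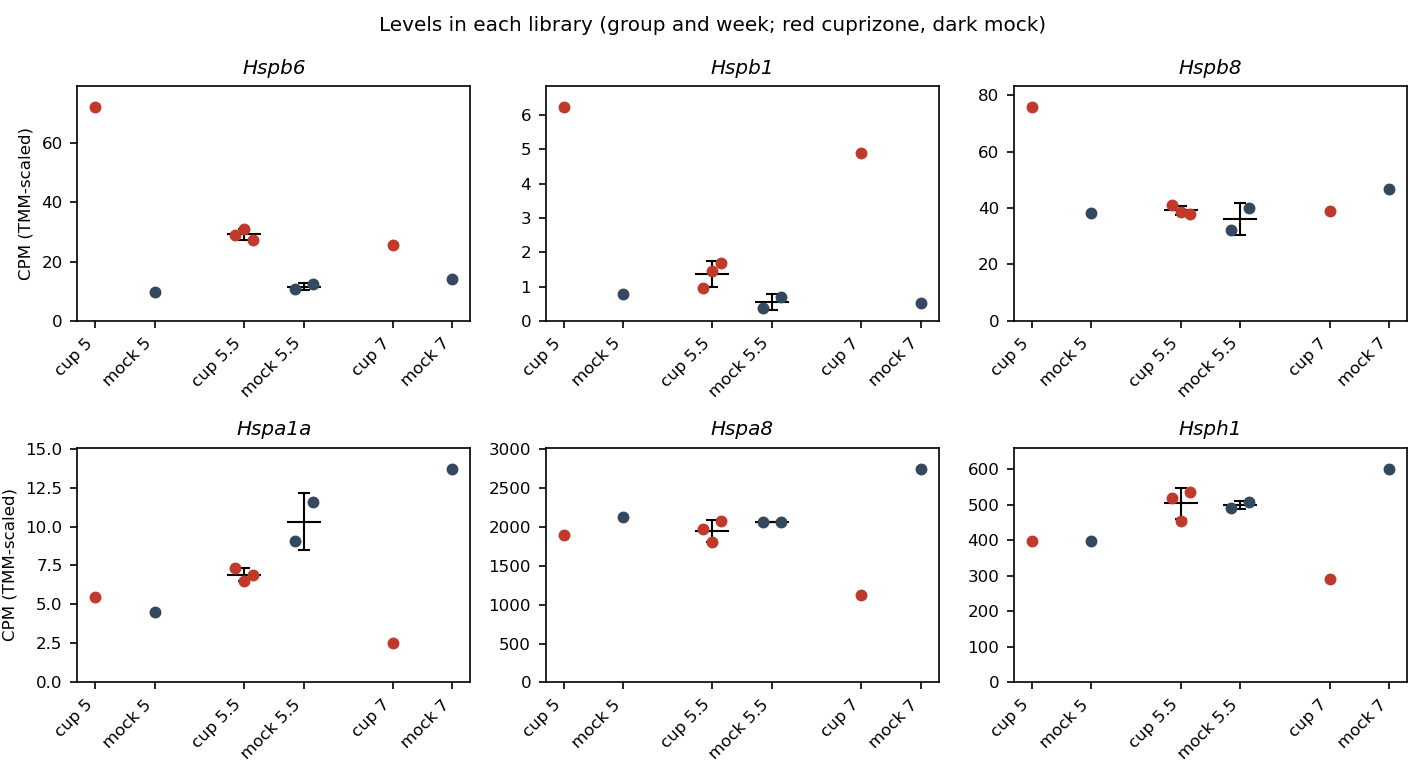
CPM of 6 members in each library (TMM-scaled, cuprizone in red left of mock in dark, at 5, 5.5 and 7 weeks), with the mean and SD at 5.5 weeks. Hspb6 lies at 27.3 to 31.1 CPM in cuprizone and 10.6 to 12.4 CPM in mock at 5.5 weeks and at 72 against 9.82 CPM at 5 weeks, while Hspa8 and Hsph1 separate at 7 weeks.

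At 5 weeks, the end of cuprizone feeding, 2 of 5 measured small heat shock proteins were at least 2-fold higher in the cuprizone library and 1 at least 2-fold lower. Over all measured genes 8.82% were at least 2-fold higher and 12.2% lower. Measured means 5 CPM in either library, which Hspb1 reached only in cuprizone and Hspb3 only in mock. Of 11 measured members of the endoplasmic reticulum, a list put together after the values were seen, 5 were at least 2-fold lower (4 with library totals). Hspb6 had 72 CPM in the cuprizone library and 9.82 CPM in the mock library, 7.33-fold higher (counting interval 6.33 to 8.53). Hspb1 had 6.23 CPM in cuprizone and 0.782 CPM in mock, 7.97-fold higher (4.73 to 14.3). Hspb8 had 75.7 CPM in cuprizone and 38.4 CPM in mock, 1.97-fold, just under the 2-fold used here; with the mean of all deposited libraries of each group its log2 ratio was 1.12. Hspb11 had 25.7 CPM in cuprizone and 25.8 CPM in mock, and Hspb3 was lower, at 3.53 CPM in cuprizone and 8.45 CPM in mock. Gfap had 9686.1 CPM in the cuprizone library and 902 CPM in mock, and its part in these differences was not tested. Mural cell markers summed to 28.2 CPM in cuprizone and 22.9 CPM in mock, with 2 of 6 at 0 in cuprizone and 1 in mock. Endothelial markers summed to 0.186 CPM in cuprizone and 3.76 CPM in mock, with 2 of 5 at 0 in cuprizone and 1 in mock. The part of both lists in these differences was not tested.

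Over the 58 members with at least 5 CPM in either 5-week library, 3 were at least 2-fold higher, where 8.82% of all measured genes were, and 7 at least 2-fold lower, where 12.2% were. The third higher member was Dnajb13, with 190 counts in the cuprizone library and 0 in mock, so it reached the 5 CPM minimum through cuprizone alone. Set against an assumed floor of 3 counts in mock it was 60.2-fold higher. The exact 95% counting interval of the ratio starts lower, at 48.5. With the mean of all deposited libraries of each group, repeats included, its log2 ratio was 3.11 in place of 6.55. Markers of ependymal cells, which carry motile cilia, summed to 44.8 CPM in cuprizone and 22.9 CPM in mock, and their part in this difference was not tested. Ucp2 overlaps 11.2% of the exon length of Dnajb13 on the other strand. The members' median log2 ratio was -0.14, with 39 of 58 below 0, beside -0.01 for all measured genes, of which 50.5% were lower. By class the medians were 0.98 for 5 small heat shock proteins, 0.08 for 9 HSP70 genes, -0.28 for the HSP90 pair, -0.02 for the chaperonin pair, -0.05 for 4 class A, -0.27 for 11 class B and -0.27 for 24 class C DnaJ genes. With library totals, which raised log2 ratios by a median of 0.10, the small heat shock proteins stood at 1.08 and the class C genes at -0.16, while the chaperonin pair (0.08) and class A (0.05) changed sign.

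Of the 7 lower members at 5 weeks, 5 were proteins of the endoplasmic reticulum. Dnajc16, a DnaJ protein of that membrane, had 4.46 CPM in the cuprizone library and 23.8 CPM in mock, 5.33-fold lower (4.28 to 6.71). It reached the 5 CPM minimum only in mock. Dnajc10, which reduces disulfide bonds of misfolded proteins, had 36.2 CPM in cuprizone and 86.5 CPM in mock. Dnajb11 and Dnajb9, both partners of the luminal HSP70, had 41 CPM in cuprizone against 88.9 CPM in mock and 47.6 CPM in cuprizone against 101 CPM in mock. Hspa13, a short HSP70 of the same compartment, had 14.7 CPM in cuprizone and 40.3 CPM in mock. All of these were at least 2-fold lower in cuprizone, as were Hspb3, given above, and Dnajc21, a cytosolic factor of ribosome maturation, at 7.06 CPM in cuprizone and 18.7 CPM in mock. With library totals Dnajb9 stood at a log2 ratio of -0.98, short of 2-fold, and with the mean of all deposited libraries Dnajc21 stood at -0.72 in place of -1.39.

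Of 11 measured members that sit in the endoplasmic reticulum, 5 were at least 2-fold lower (4 with library totals), where 12.2% of all measured genes were. The list was put together after the values were seen and given no test. Its median log2 ratio was -0.72, and 10 lay below 0. Dnajb12, a tail-anchored membrane protein, was the exception at 0.12. At 5.5 weeks the 12 tested members of the same list lay between -0.04 and 0.78, with a median of 0.07 and 0 called, and Dnajc16 had 33.5, 28.4 and 36 CPM in cuprizone against 29.8 and 24.3 CPM in mock. The 9 mitochondrial members had a 5-week median of -0.05, between -0.51 for Dnajc15 and 0.51 for Dnajc11, and none was 2-fold different. No spread is known for the 5-week pair, and mature oligodendrocyte markers summed to 10473.8 CPM in the cuprizone library and 15774.5 CPM in mock, whose part in these differences was not tested.

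The classical HSF1-inducible members lay on both sides of 0 at 5 weeks. Of 10 measured, 1 was at least 2-fold higher (Hspb1, past the 5 CPM minimum only in cuprizone), where 8.82% of all measured genes were. Among the 10, 0 were 2-fold lower, where 12.2% of all measured genes were, and the median log2 ratio was -0.06. Hspa1a had 5.48 CPM in cuprizone and 4.49 CPM in mock, Hsph1 had 399 CPM in both libraries, and Dnajb1, the main cytosolic class B partner of HSP70, had 138 CPM in cuprizone and 165 CPM in mock. The HSP90 genes had log2 ratios of -0.27 (Hsp90aa1) and -0.28 (Hsp90ab1). The median moved to 0.04 when library totals replaced TMM.

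**Figure D3:**
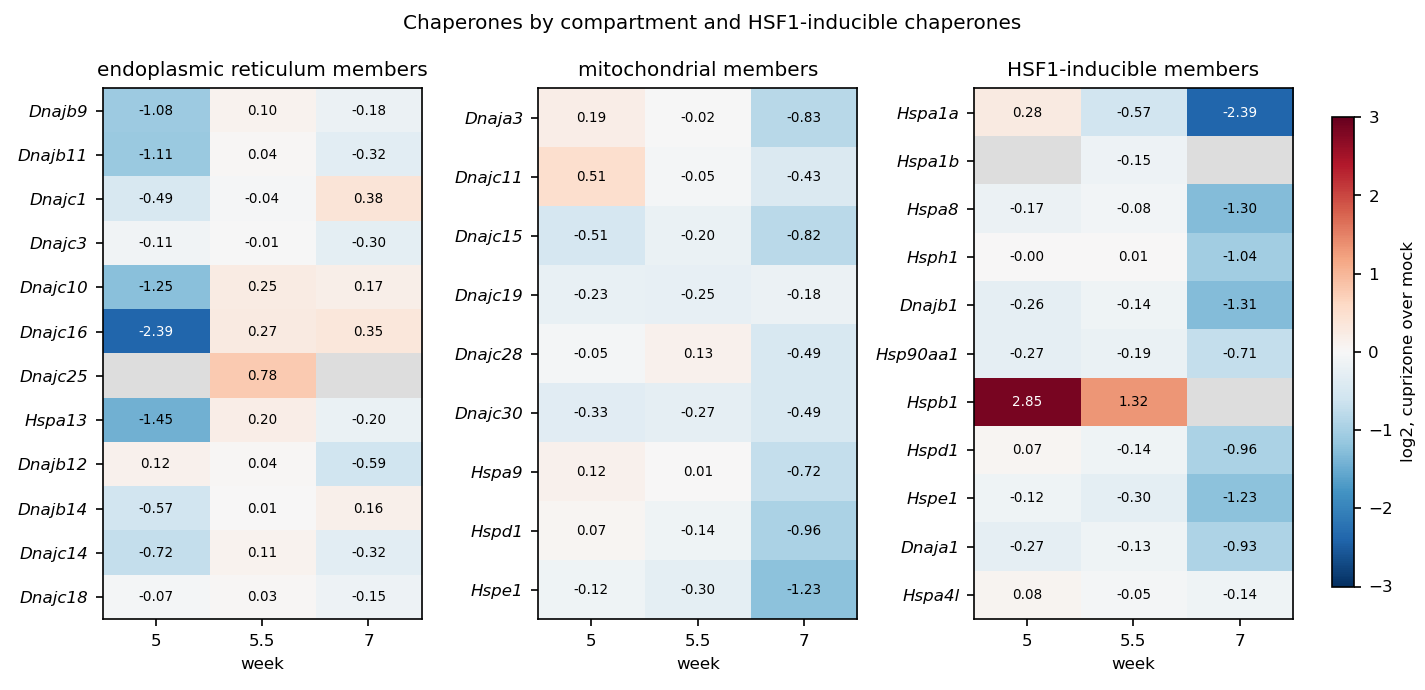
Log2 of cuprizone over mock at 5, 5.5 and 7 weeks for members of the endoplasmic reticulum, of mitochondria and of the HSF1-inducible list; colour and number give the value, grey marks members not measured. Medians of the endoplasmic reticulum members are -0.72, 0.07 and -0.18, and of the HSF1-inducible members -0.06, -0.14 and -1.04. Hspd1 and Hspe1 stand on both of the other lists.

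At 7 weeks, after recovery on normal chow, most of the network was lower in the cuprizone library. Of 55 measured members 48 were lower, with a median log2 ratio of -0.56, beside -0.16 for all measured genes, of which 59.3% were lower. With library totals in place of TMM, which raised log2 ratios by a median of 0.36, 37 of the same 55 members were lower, with a median of -0.20. Over all genes measured with that scaling the median was 0.22 and 36.9% were lower. By TMM, 7 members were at least 2-fold lower, where 3.99% of measured genes were, and 2 at least 2-fold higher, where 10.8% were. Of these, Hspa1a reached the 5 CPM minimum only in mock and Hspa12b only in cuprizone. The cuprizone library of this comparison is the one that stood apart, and its higher microglia, endothelial and mural markers (8 of 8, 5 of 5 and 6 of 6 higher) move with these values. Of the 8 neuron markers 5 were lower and 3 higher, among them Snap25 at 3386.0 CPM in cuprizone and 6715.2 CPM in mock and Gad1 at 240 CPM in cuprizone and 44.7 CPM in mock. The part of these markers was not tested.

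The members lower at 7 weeks were led by cytosolic HSP70 and its partners. Hspa1a had 2.54 CPM in the cuprizone library and 13.7 CPM in mock, 5.38-fold lower (4.16 to 7.04). Hspa8 had 1120.2 CPM in cuprizone and 2750.7 CPM in mock, 2.46-fold lower (2.42 to 2.49), and Hsph1 292 CPM in cuprizone and 601 CPM in mock, 2.06-fold lower. Their HSP40 partner Dnajb1 had 98.1 CPM in cuprizone and 244 CPM in mock, and Dnajb5, a second class B protein of the cytosol, 91.9 CPM in cuprizone and 247 CPM in mock. Dnajb2 had 102 CPM in cuprizone and 229 CPM in mock, and the mitochondrial Hspe1 had 39.4 CPM in cuprizone and 92.7 CPM in mock. Of these 7, Hspa1a and Dnajb5 stayed at least 2-fold lower by library totals.

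By class at 7 weeks, the TMM medians were -0.91 for the 4 class A DnaJ genes, -0.75 for the HSP90 pair, -1.10 for the chaperonin pair, -0.74 for 10 HSP70 genes, -0.59 for 9 class B and -0.40 for 24 class C DnaJ genes. With library totals these were -0.55, -0.39, -0.73, -0.37, -0.23 and -0.04, in the same order and all below 0, while the 3 measured small heat shock proteins flipped, with -0.26 by TMM and 0.10 by library totals. By TMM the HSP110 Hsph1 had -1.04, while Hspa4 and Hspa4l, counted with HSP70, had -0.53 and -0.14. Of 9 measured HSF1-inducible members 9 were lower and 5 at least 2-fold lower, with a median of -1.04 (-0.68 by library totals, 8 lower and 1 at least 2-fold lower). By TMM 59.3% of all measured genes were lower and 3.99% at least 2-fold lower. Hspb1, 9.38-fold higher at 4.9 CPM in cuprizone, and Hspa1b, lower in cuprizone, are on the list of 11. Both fell under the 5 CPM minimum, so Hspb1 is also outside the small heat shock protein median. The 9 mitochondrial members had a median of -0.72, and the 11 of the endoplasmic reticulum -0.18, which turned to 0.18 by library totals.

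Against this direction, Hspa12b was 10.6-fold higher in the 7-week cuprizone library (8.34 CPM against 0.784 CPM in mock, interval 6.79 to 17.5). It is a distant HSP70 known from endothelial cells, and endothelial markers were higher in the same library, as above, with 0 of 5 at 0 counts in either library; their part was not tested. At 5 weeks Hspa12b had 2.18 CPM in cuprizone and 0.391 CPM in mock, under the 5 CPM minimum, beside endothelial markers of 0.186 CPM in cuprizone and 3.76 CPM in mock. These sums lie near the floor, with 2 of 5 markers at 0 in cuprizone and 1 in mock, and Kdr held 2.39 CPM of the mock sum. At 5.5 weeks Hspa12b overlapped, with 0.878, 1.08 and 0.921 CPM in cuprizone and 1 and 0.631 CPM in mock. Dnajc13, which uncoats clathrin at endosomes, had 35.6 CPM in cuprizone and 14 CPM in mock (2.55-fold, 2.26 to 2.88). Hspb6 had 25.6 CPM in cuprizone and 14 CPM in mock (1.82-fold, 1.61 to 2.07), and with library totals its log2 ratio was 1.23 in place of 0.86. Hspb1 had 4.9 CPM in cuprizone and 0.523 CPM in mock, 9.38-fold higher (5.4 to 17.6), but stayed under the minimum of 5 CPM and so outside the counts above, and Hspb8 had 38.8 CPM in cuprizone and 46.6 CPM in mock (log2 ratio -0.26, and 0.10 with library totals). Hspb6 and Hspb1 thus lay above mock in the cuprizone libraries of each week.

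**Figure D4:**
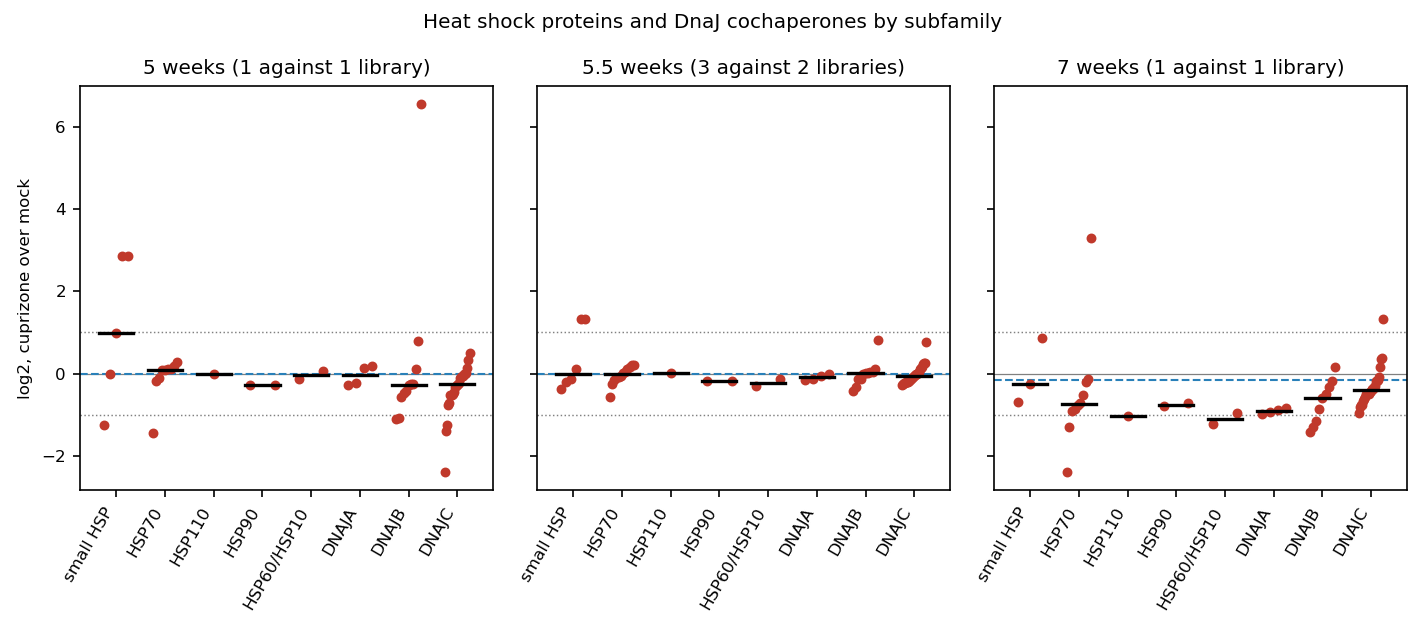
Log2 of cuprizone over mock for each tested or measured member (red points) by class at 5, 5.5 and 7 weeks; black bars are class medians, the blue dashed line the median of all genes and the dotted lines 2-fold. Class medians lie within 0.22 of 0 at 5.5 weeks, and at 7 weeks every one is below the all-gene median of -0.16.

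The difference between the 7-week and 5.5-week effects was tested in 1 fit of all 9 libraries, in which each lone library is assumed to vary like the 5.5-week groups. Of 64 members tested 16 were lower at 7 weeks than at 5.5 weeks, where 6.92% of all genes were, and 4 were higher, where 10.3% were. The lower ones, by edgeR's quasi-likelihood test with Benjamini-Hochberg adjustment, included Hspa1a (log2 difference -1.82 ± 0.36 SE, adjusted p 0.00209), Dnajb5 (-1.39 ± 0.23 SE, adjusted p 0.000584), Hspa8 (-1.19 ± 0.21 SE, adjusted p 0.00102) and Hsph1 (-1.03 ± 0.22 SE, adjusted p 0.00331). The remaining 12, Dnajb1, Hspa2, Hspa12a, Hspe1, Dnajb2, Dnaja2, Hspd1, Dnaja3, Dnaja1, Hspa9, Dnajb6 and Dnajc5, lay between -1.15 and -0.62. Higher were Hspa12b (3.21 ± 0.56 SE, adjusted p 0.000767), Dnajc13 (1.21 ± 0.28 SE), Hspb1 (1.93 ± 0.66 SE, adjusted p 0.0497) and Dnajb7, a testis gene with 22 counts in the 7-week cuprizone library and 0 in mock. With RLE size factors the edgeR adjusted p was 0.0527 for Hspb1 and 0.0789 for Dnajc5, so both calls were lost. Every one of these differences rests on 1 cuprizone and 1 mock library at 7 weeks, and the cuprizone library is the one that stood apart. Dnajb7 had 0 to 0.111 CPM in the 5.5-week libraries and 0 counts in both 5-week libraries. It therefore passed the count filter through the 7-week cuprizone library alone, where it is high, and its place among the higher members gives no support.

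**Figure D5:**
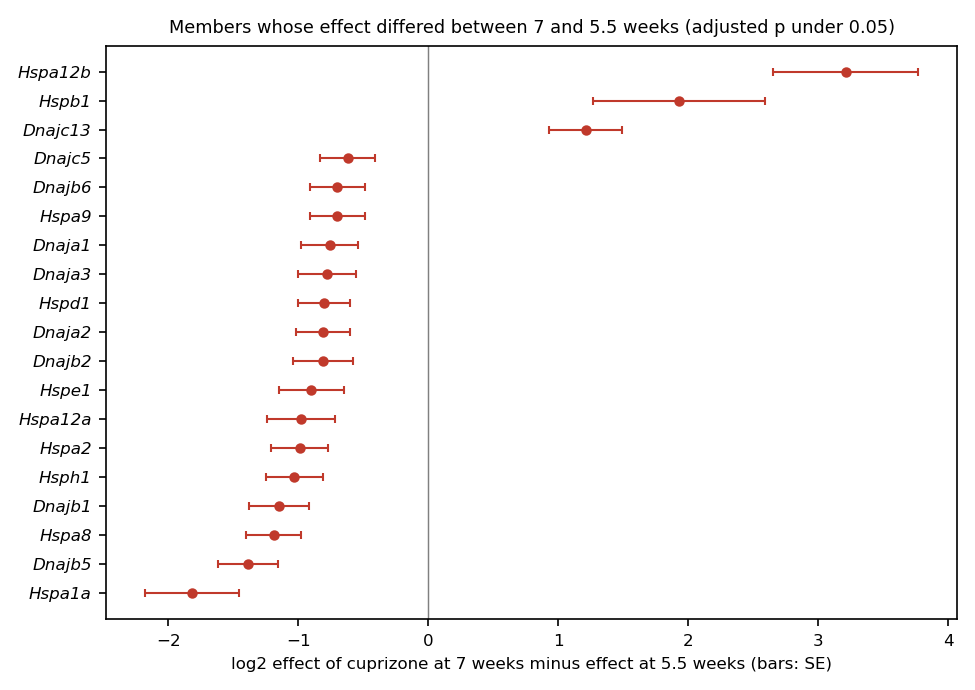
Log2 effect of cuprizone at 7 weeks minus the effect at 5.5 weeks with its SE, for the members past an edgeR adjusted p of 0.05 (Dnajb7, with 0 counts in 7-week mock, is not drawn). The lower genes reach -1.82 for Hspa1a and the higher ones 3.21 for Hspa12b.

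Members with a heat shock element in their window had a median log2 fold change of -0.13 at 5.5 weeks (15 tested), beside -0.03 for 36 members without one. At 5 weeks the medians were -0.06 with and -0.11 without. At 7 weeks they were -0.90 for 12 with and -0.52 for 32 without. Within the measured members that hold it, values ran from -2.39 for Hspa1a to 0.86 for Hspb6 at 7 weeks, so the genes printed above with the same letters lay on both sides of 0. Hspb1, under the 5 CPM minimum and so outside that range, stood at 3.06.

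The rest of the folding network, 45 genes outside the rule, is given by the same measures. At 5.5 weeks 44 were tested and edgeR called 0, with 1 higher and 11 lower at an unadjusted p under 0.05 (10.9% of all genes in either direction) and 0 called by DESeq2 or limma-voom; the median log2 fold change was -0.17. Hsf1, the heat shock transcription factor, had 58.2, 48.6 and 55.4 CPM in cuprizone libraries, against 58.6 and 61.5 CPM in mock. At 5 weeks 2 of 43 were at least 2-fold higher and 0 lower, beside 8.82% and 12.2% of all measured genes: Bag3, the partner of Hspb8, had 13 CPM in the cuprizone library and 5.03 CPM in mock, and Unc45a, a myosin and HSP90 cochaperone, had 24.5 CPM in cuprizone and 10.4 CPM in mock. At 7 weeks 1 was at least 2-fold higher and 9 lower, beside 10.8% and 3.99% of all measured genes, with a median of -0.69. With library totals 2 of the same 43 were higher and 1, Cryab, lower, with a median of -0.33. By TMM the higher one was Bag1, an HSP70 nucleotide exchange factor (log2 ratio 1.30). The lower ones included Stip1, the adaptor between HSP70 and HSP90, at 176 CPM in cuprizone and 437 CPM in mock, and the lens and glial small heat shock protein Cryab at 311 CPM in cuprizone and 820 CPM in mock. Cryab, which is close kin to Hspb6, had log2 values of -0.67 at 5 weeks and -0.48 at 5.5 weeks (309, 420 and 324 CPM in cuprizone, against 388 and 592 CPM in mock, overlapping).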

How the data were processed

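Ribosome-bound RNA was sequenced from 17 libraries. The authors deposited raw counts per Ensembl gene; per the submitters' processing notes, the tools were FastQC 0.11.9, STAR 2.5.4b and featureCounts 1.6.0, and builds GRCm38/mm10 and GRCm39/mm39 are named without a role. Symbols came from a GENCODE M21 annotation and named 99.57% and 94.08% of the identifiers of the 2 batches. Members and lists were chosen with earlier results of these data known. The 8 repeating libraries were left out; the comparison that showed them is in the report.

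At 5.5 weeks counts were filtered with filterByExpr (minimum count 10), TMM-scaled and tested with edgeR 4.0.16's quasi-likelihood test, adjusted by Benjamini-Hochberg (threshold 0.05) over 16086 genes, with 3 residual degrees of freedom; limma 3.58.1 and DESeq2 1.42.0 were alternatives. At 5 and 7 weeks TMM-scaled ratios (prior count 2) were read where either library had 5 CPM, at 2-fold, with exact 95% counting intervals. PCR reads are not independent molecules, so intervals and floors cover counting error only. The fit and ratio steps were tested on simulated data. Set to be named were the members past the threshold or lowest in p at 5.5 weeks and the largest ratios at 5 and 7 weeks. The most abundant of each class and the HSF1-inducible members were added. Values are not printed for each of them at every week. Given only here, as log2 ratios, are Dnajc12 (0.33) and Dnajc4 (-0.77) at 5 weeks. The same holds for Dnajc1 (0.38), Dnajb14 (0.16) and Dnaja4 (-0.99) at 7 weeks. Others named were chosen after their values were seen. The endoplasmic reticulum and mitochondrial lists were also made after values were seen. Depth of 20797535 to 30400048 counts gives wide error below about 1 CPM.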

Additional observations from a re-analysis of the deposited data

Results flagged for a closer look

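The effects of cuprizone at 7 weeks and at 5.5 weeks differed in 20 members by a test of the difference itself, the edgeR quasi-likelihood test of the 7-week effect minus the 5.5-week effect. Among HSP70 and HSP110 genes the log2 difference was -1.82 for Hspa1a, -1.19 for Hspa8, -1.03 for Hsph1, -0.99 for Hspa2, -0.98 for Hspa12a and -0.70 for Hspa9. Among class A DnaJ genes it was -0.81 for Dnaja2, -0.78 for Dnaja3 and -0.76 for Dnaja1. Among class B and C genes it was -1.39 for Dnajb5, -1.15 for Dnajb1, -0.81 for Dnajb2, -0.70 for Dnajb6 and -0.62 for Dnajc5. The chaperonin genes had -0.90 (Hspe1) and -0.80 (Hspd1). Higher at 7 weeks were Dnajc13 (1.21), Hspb1 (1.93), Hspa12b (3.21) and Dnajb7 (9.16), the last a fitted value for a gene with 0 counts in the 7-week mock library and so no measure of size. With RLE size factors Hspb1 (2.01) and Dnajc5 (-0.54) no longer passed. Of the 64 members tested 16 were lower and 4 higher at 7 weeks, where 6.92% and 10.3% of all genes were. All 20 rest on the lone 7-week cuprizone library described in the report and on the lone 7-week mock library. Dnajb7 passed the count filter through that cuprizone library alone.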

How the results depend on the processing

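Hspb6 at 5.5 weeks kept its call in all 14 alternatives, with log2 fold changes of 1.23 to 1.48 and edgeR, DESeq2 or limma adjusted p-values up to 0.0115. Hspb1 passed without the count filter (log2 1.31) and with a replicate block (1.27), Dnajb13 with all 6 deposited 5.5-week libraries (0.84) and Hspa1a with all 17 libraries (-0.49), where repeated libraries count as samples. The 5.5-week counts of genes that rose and fell (173 and 63) were 381 and 162 without the filter, 481 and 269 with the replicate block, and 614 and 175 with all 17 libraries; 314 rose with 6 libraries. Leaving out 1 library gave 49 to 189 genes that rose and 16 to 85 that fell, the fewest of both (49 and 16) without mock replicate 3, with 57 and 31 without mock replicate 1, 113 and 17 without cuprizone replicate 1 and 24 that fell without cuprizone replicate 3, and 1 member that rose each time. Members that rose numbered 2 without the filter, with 6 libraries and with the block, and 1 member fell with all 17. Samples with the same replicate number did not deviate together (correlations 0.039 and -0.080), so they share only a number, and the block changed no other member's call. At 5 weeks, a minimum of 1 CPM gave 1918 genes higher and 2330 lower. At 1.5-fold 2144 genes were higher and 2357 lower of 11570 measured, with 5 of 58 measured members higher. The 9-library fit counts genes by an adjusted p under 0.05 in place of a fold. By that criterion 2959 genes were higher and 3760 lower at 5 weeks, with 5 members higher and 16 lower. These genes were 14.6% and 18.5% of the 20292 in that fit, which held 64 members. Each lone library is assumed there to vary like the 5.5-week groups, so these counts are no replicate check. At 7 weeks, library totals gave 2204 genes higher and 111 lower, with 4 and 2 of 56 measured members. A minimum of 1 CPM gave 3232 genes and 4 members higher. At 1.5-fold 2257 genes were higher and 2847 lower of 12208 measured, with 27 of 55 measured members lower. Centring on the all-gene median, chosen after seeing the data, gave 219 genes lower. By the adjusted p of the 9-library fit, 4860 genes were higher and 3120 lower at 7 weeks, with 6 and 28 members. These genes were 24% and 15.4% of the 20292 in the fit, beside its 64 members. They too rest on 1 cuprizone and 1 mock library and are no replicate check. For the difference between weeks, RLE size factors gave 877 genes lower and ended the calls of Dnajc5 (-0.54) and Hspb1 (2.01), and all 17 libraries gave 5883 genes higher and 4053 lower with 36 members lower. With all 17 libraries repeats count as samples, and no share of all genes is given beside those 36 members. The causes were not tested beyond the settings' own construction. Depth limits the low members Hspb1, Dnajb13 and Dnajc25.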
